A study of Mus musculus with 24 samples.

Results

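The 44 mitosis and spindle genes described here encode the proteins that take a cell from the end of G2 through chromosome condensation, spindle assembly, chromosome segregation and cytokinesis. They were given as a list of gene symbols. All 44 were found on the arrays, among 21154 genes with a named probe, by matching the accession of each probe to its gene. They were measured by 62 of the 55681 probes, and each gene is represented by the probe with the highest mean Cy5 signal.

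Entry into mitosis is driven by CDK1 bound to B-type cyclins and activated by CDC25 phosphatases, and the Polo-like and Aurora kinases act beside it. The spindle assembly checkpoint holds the anaphase promoting complex back until every kinetochore is attached, after which securin and cyclin B are degraded and separase opens the cohesin rings. Transcription of these genes follows the cell cycle, controlled by DREAM and MuvB complexes bound to a promoter element called CHR and by NF-Y at CCAAT boxes. In the thymus, division is concentrated in immature thymocytes, whereas most CD4+ CD8+ thymocytes are small resting cells.

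Primary thymocytes of C57BL/6J mice, 4 to 5 weeks old, were studied in 8 groups of 3 samples: control, high dose, low dose and RAR (radio-adaptive response), each in females and in males. Control mice were not irradiated. The high dose was 1.75 Gy of γ-rays, the low dose was 0.075 Gy of X-rays, and the RAR groups received the priming 0.075 Gy and, 6 h later, the challenging 1.75 Gy. The thymus was dispersed whole, without a sort. The labels speak of irradiated thymocytes and the methods of irradiated mice, and the time from the last irradiation to collection is not given in the sources used here. Each of the 24 two-colour arrays held the RNA of 1 thymocyte sample in Cy5 and, in Cy3, the same reference RNA pooled from several mouse sources. Every value below is log2(Cy5/Cy3), the level in thymocytes relative to that reference. A difference between groups is a difference of these log2 ratios, given ± its standard error (SE), with p-values adjusted over all probes. The threshold required both an adjusted p below 0.05 and a 1.5-fold or larger change, and genes that met both are called past the threshold. The 3 samples of a group are separate samples in the labels.

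On 23 arrays, the share of spots with a Cy5 signal well above background was 49.3% to 71.8%. The array of female RAR replicate 3 had 34.7%. Markers of CD4+ CD8+ thymocytes (Cd4, Cd8a, Rag1, Dntt and 7 others) were above background on every array. Of the 44 genes, 38 were above background on all 24 arrays. The exceptions were Ncapg (14 arrays), Ttk (18), Aurkb (20) and Cdc25c, Cenpf and Kif2c (23 each). The number of arrays limits the precision of each value.

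The promoters of the genes are shown first, because CHR and CCAAT letters are what this group of genes is known to share and the list of symbols did not use them. RefSeq promoter windows of the GRCm38.p6 build, from 250 bases before to 50 bases after the transcript start, were found for 35 of the 44 genes (37 windows). The CHR was searched as TTTGAA or TTCGAA and the CCAAT box as CCAAT, on both strands. Below are the 150 bases before the start for 7 genes that hold both motifs there and for Pttg1, the member that stood apart in the expression data. Each is written 5′ to 3′ on the strand of the gene, with the letters of a CHR or CCAAT match in capitals (TTCAAA and ATTGG are the matches on the other strand).
Cdk1 (chr10:69352913-69353062, - strand): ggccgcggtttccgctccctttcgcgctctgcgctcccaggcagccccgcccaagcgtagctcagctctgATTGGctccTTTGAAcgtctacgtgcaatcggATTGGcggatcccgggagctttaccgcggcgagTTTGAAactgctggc
Top2a (chr11:99024190-99024339, - strand): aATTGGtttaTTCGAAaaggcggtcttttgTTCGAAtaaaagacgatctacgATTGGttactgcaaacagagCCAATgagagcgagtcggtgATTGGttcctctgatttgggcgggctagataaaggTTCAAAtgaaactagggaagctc
Mki67 (chr7:135716380-135716529, - strand): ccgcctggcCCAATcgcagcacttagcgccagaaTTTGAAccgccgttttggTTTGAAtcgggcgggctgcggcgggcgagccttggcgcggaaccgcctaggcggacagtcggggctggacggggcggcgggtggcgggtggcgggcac
Cdc20 (chr4:118437344-118437493, - strand): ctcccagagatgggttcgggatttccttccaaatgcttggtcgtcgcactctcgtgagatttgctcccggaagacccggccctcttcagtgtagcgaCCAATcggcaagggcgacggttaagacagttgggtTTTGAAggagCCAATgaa
Ube2c (chr2:164769779-164769928, + strand): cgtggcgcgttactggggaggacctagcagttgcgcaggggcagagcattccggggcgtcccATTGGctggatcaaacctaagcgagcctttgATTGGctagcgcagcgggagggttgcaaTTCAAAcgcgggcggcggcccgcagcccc
Kif11 (chr19:37376232-37376381, + strand): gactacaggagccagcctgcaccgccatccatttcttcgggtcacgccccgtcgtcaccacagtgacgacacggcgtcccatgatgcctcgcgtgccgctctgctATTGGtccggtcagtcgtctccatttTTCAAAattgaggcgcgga
Espl1 (chr15:102296143-102296292, + strand): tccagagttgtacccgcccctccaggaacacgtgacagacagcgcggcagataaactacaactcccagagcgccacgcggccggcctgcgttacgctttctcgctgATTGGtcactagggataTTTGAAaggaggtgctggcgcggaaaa
Pttg1 (chr11:43425982-43426131, - strand): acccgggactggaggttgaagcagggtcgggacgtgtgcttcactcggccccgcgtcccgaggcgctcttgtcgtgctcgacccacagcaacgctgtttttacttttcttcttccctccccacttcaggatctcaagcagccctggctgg
In Cdk1, which encodes the kinase that triggers mitosis, the CHR matches began at positions -71 and -15 from the start and the CCAAT matches at -80 and -48. In Espl1 (separase) and Kif11 (a motor that slides spindle microtubules apart) 1 CCAAT match, at -44 and at -45, preceded 1 CHR match, at -27 and at -19. Pttg1, which encodes securin, held neither motif in its window.

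CHR letters were present in 29 of the 37 windows (78.4%), against 19.2% of the 32851 windows of all genes. CCAAT letters were present in 75.7% against 37.4%, and both motifs in 70.3% against 7.53%. A CHR match within 50 bases of the start occurred in 73.0% of the windows of these genes and in 5.31% of all windows. The letters of the motifs overlapped in 1 window. Of the 35 genes, 27 had a CHR, 26 a CCAAT box and 24 both, and 6 had neither: Birc5, Mad2l1, Ncaph, Nuf2, Nusap1 and Pttg1. A match is a description of the letters and does not show that a factor binds there.

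**Figure D1:**
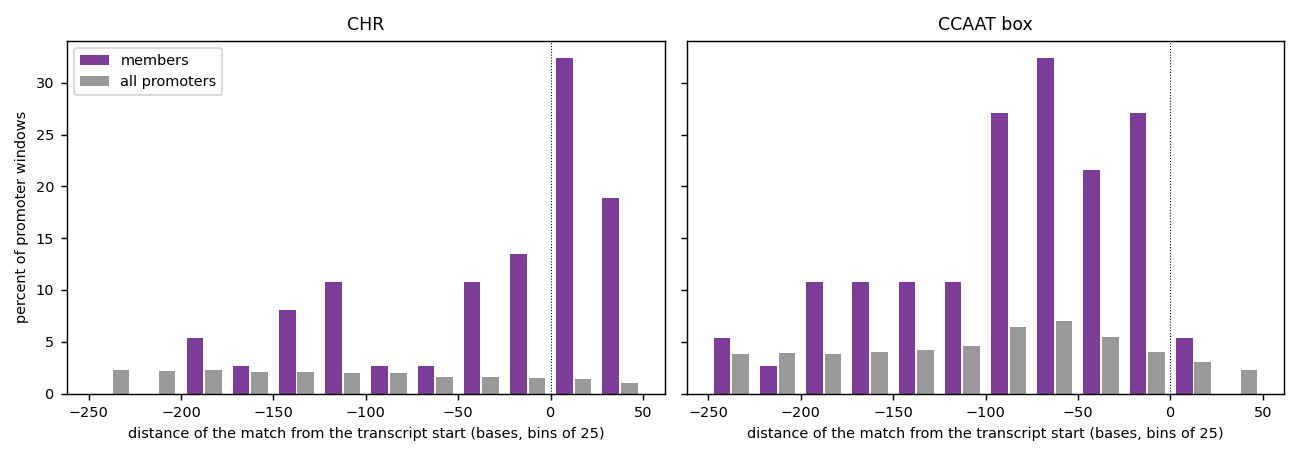
Share of promoter windows (percent, y axis) with a CHR match (left) or a CCAAT match (right) by distance from the transcript start in bins of 25 bases (x axis), for the 37 windows of the mitosis and spindle genes (purple) and all 32851 windows (grey). CHR matches of the mitosis and spindle genes lie mostly within 50 bases of the start (73.0% of windows, against 5.31% of all windows), and CCAAT matches lie mostly in the 100 bases before it.

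The mitosis and spindle genes lay lower in RAR thymocytes than in the other groups of the same sex. The median of the 44 log2 ratios on each array was -0.50, -0.28 and -0.68 in female RAR and -0.75, -0.92 and -0.72 in male RAR samples. It was -0.29, -0.15 and -0.09 in female controls and 0.07, -0.29 and -0.23 in male controls. In both sexes the RAR arrays lay below all control, high dose and low dose arrays, except that female RAR replicate 2 (-0.28) lay just above female control replicate 1 (-0.29). After the high dose the medians were -0.01, 0.01 and 0.31 in females and -0.13, 0.04 and -0.15 in males, and after the low dose 0.01, -0.09 and 0.20 and 0.25, -0.06 and 0.13, so that the irradiated groups without RAR overlapped with or lay above the controls. In these bulk samples, fewer dividing cells and less mitotic RNA per cell cannot be told apart.

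**Figure D2:**
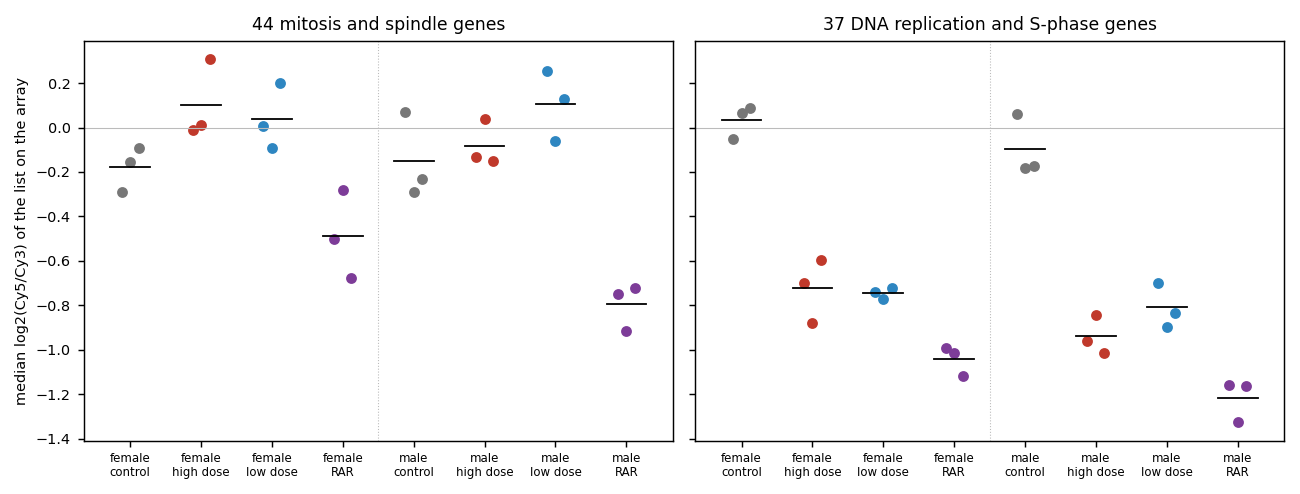
Median log2(Cy5/Cy3) on each array (points, y axis) by sex and treatment (x axis), for the 44 mitosis and spindle genes (left) and 37 genes of DNA replication and S phase (right). Black lines are the means of 3 arrays. The mitosis and spindle genes were lowest in RAR, and the S-phase genes were already lower after either single dose.

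Against control, 14 of the 44 genes were lower and 1 was higher in female RAR thymocytes, where 10.8% of all probes were lower and 9.61% higher. The median difference was -0.45, and -0.04 over all probes. In males 23 were lower and 1 was higher, where 13.3% of all probes were lower and 11.2% higher, with a median difference of -0.59. Against high dose, which differs from RAR by the priming X-rays, 22 were lower and 1 higher in females (all probes: 3.28% lower, 3.97% higher) and 29 lower and 1 higher in males (2.77% lower, 3.07% higher). The medians were -0.61 and -0.73. Against low dose, 17 were lower and 1 higher in females (1.86% lower, 2.26% higher) and 31 lower and 1 higher in males (4.80% lower, 4.96% higher), with medians of -0.57 and -0.92. The gene that was higher was Pttg1 in all 6 comparisons. The 3 comparisons of a sex share its RAR arrays and are not independent of each other.

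After a single dose few of the genes passed the threshold. High dose against control gave 4 higher and 0 lower in females (all probes: 4.21% higher, 3.63% lower) and 2 higher and 1 lower in males (5.18% higher, 5.33% lower). Low dose against control gave 4 higher and 1 lower in females (4.75% higher, 4.0% lower) and 7 higher and 0 lower in males (3.19% higher, 3.44% lower). Of the 32732 probes well above background, 12.4% in females and 16.1% in males passed in either direction after the high dose. After the low dose 14.5% and 10.6% passed. The male low dose count rested on few arrays: 1 gene was higher without male low dose replicate 1, 2 without male control replicate 2, 4 without male control replicate 3 and 11 without male control replicate 1, and 1 from the 6 arrays of the comparison alone. Without male low dose replicate 1, Ccnb1 (0.54, adjusted p = 0.102), Cenpe (0.68, adjusted p = 0.0919), Prc1 (0.58, adjusted p = 0.0217) and Ect2 (0.57, adjusted p = 0.102) were no longer past the threshold. In females the low dose count was 2 without control replicate 1 or low dose replicate 1 or 3, and the high dose count 2 without high dose replicate 3. In males 5 were higher after the high dose without male control replicate 1. High dose against low dose, a comparison added after the values were seen, gave 0 genes in females (0% of all probes) and 0 in males (0.00180%). In either sex 0 genes were below an unadjusted p of 0.05 in limma (all probes: 4.73% in females and 7.41% in males). The median differences were 0.02 in females and -0.12 in males.

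**Figure D3:**
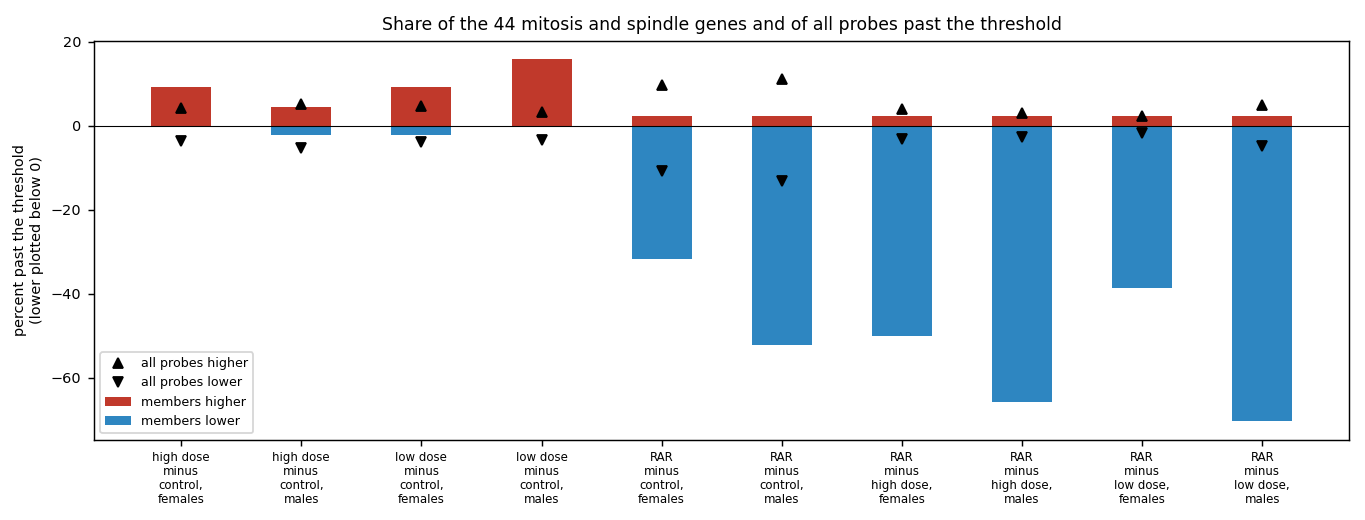
Percent past the threshold (y axis, lower genes drawn below 0) in each treatment comparison (x axis), for the 44 mitosis and spindle genes (bars) and for all 55681 probes (triangles). In the RAR comparisons 31.8% to 70.5% of the genes were lower, against 1.86% to 13.3% of all probes.

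All 14 genes lower in female RAR against control were among the 23 of the males, which is 60.9% of the latter. Against high dose the 22 female genes were all among the 29 of the males (75.9% of them), and against low dose the 17 were all among the 31 (54.8%). Over the 10 treatment comparisons, 34 of the 44 genes were lower in at least 1 and 10 were higher in at least 1, and 6 were both. The 6 that passed in none were Foxm1, Cenpf, Ndc80, Hmmr, Anln and Smc4.

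The female counts rested on few arrays. Without female RAR replicate 3, the array with the fewest spots above background, 10 genes were lower and 2 (Pttg1 and Hmmr) higher against control, 9 lower and 1 higher against high dose, and 1 (Nuf2) lower against low dose. The medians without it were -0.35, -0.53 and -0.45. Leaving out female high dose replicate 3 likewise left 9 lower against high dose, and leaving out female low dose replicate 3 left 1 lower against low dose. Fitted on the 6 arrays of the comparison alone, 0 genes passed in females against high dose or low dose, 8 were lower against control, and in males 5 were lower against high dose and 17 against low dose.

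The arrays lay on 3 slides of 8, and female controls shared no slide with female RAR or female high dose. Within a slide, the median RAR minus high dose difference was -0.53 in females (42 of 44 genes below 0) and -0.71 and -0.75 in males (43 of 44 on both slides). These rested on 2 RAR and 3 high dose arrays in females, and in males on 2 against 1 and 1 against 2. RAR minus low dose was -0.67 in females (40 of 44) and -0.67 in males (43 of 44), and RAR minus control was -0.79 in males (40 of 44). Both male values compare 1 array with 1 array. The female value compares 1 RAR array, replicate 3 with the fewest spots above background, with 2 low dose arrays. With slide as a block, 7 genes were lower in female RAR against control, 3 in female RAR against low dose and 32 in male RAR against high dose. For low dose minus control in males the slides differed, with a median of -0.17 on one (1 array against 1) and 0.38 on another (2 against 2). High dose minus control in males was -0.11 on the slide the groups shared (2 arrays against 1), and low dose minus control in females 0.25 (1 against 3).

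Markers of other cells moved with the RAR groups. Against control, 9.61% of all probes rose and 10.8% fell in female RAR, and 11.2% rose and 13.3% fell in male RAR. Against high dose 3.97% rose in females and 3.07% in males. Of 13 myeloid markers, all above background in every group, 10 rose and 0 fell in female RAR against control and 11 rose and 0 fell in males, and against high dose 11 and 7 rose. Their summed Cy5 signal, each probe's signal divided by the 75th percentile of Cy5 on its array, was 131 to 213 in female control, 222 to 296 in high dose, 257 to 347 in low dose and 558 to 607 in RAR arrays, and in males 135 to 182, 315 to 435, 262 to 435 and 545 to 646. Of 8 markers of mature T cells, 4 rose in female and 6 in male RAR against control, with sums of 94.7 to 104 and 134 to 146 in female, and 79.6 to 106 and 138 to 160 in male control and RAR arrays. The summed Cy5 signal of the 11 CD4+ CD8+ thymocyte markers was 972 to 1102 in female control and 532 to 687 in female RAR arrays, and 915 to 1033 and 482 to 543 in males. This sum is of Cy5 alone. In log2(Cy5/Cy3), the median RAR minus control difference of the 11 markers was 0.0015 in females and 0.24 in males. Of these 11, 2 rose and 2 fell in females, and 3 rose and 1 fell in males. This is near the share of the 32732 probes above background that passed in either direction (32.6% in females and 38.1% in males). Of 10 markers of immature thymocytes, 1 rose and 3 fell in females and 1 rose and 0 fell in males. Erg was at background on every array, and Hes1 was above it on 8 of 24. Of 8 B cell markers, 5 fell and 1 rose in both sexes. Several were near background: Cd79a was above it on 4 of 24 arrays, Blk on 15 and Pax5 on 17. On female RAR replicate 3 only 3 of the 8 were above background. The part of these cells in the lower mitotic transcripts was not tested.

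**Figure D4:**
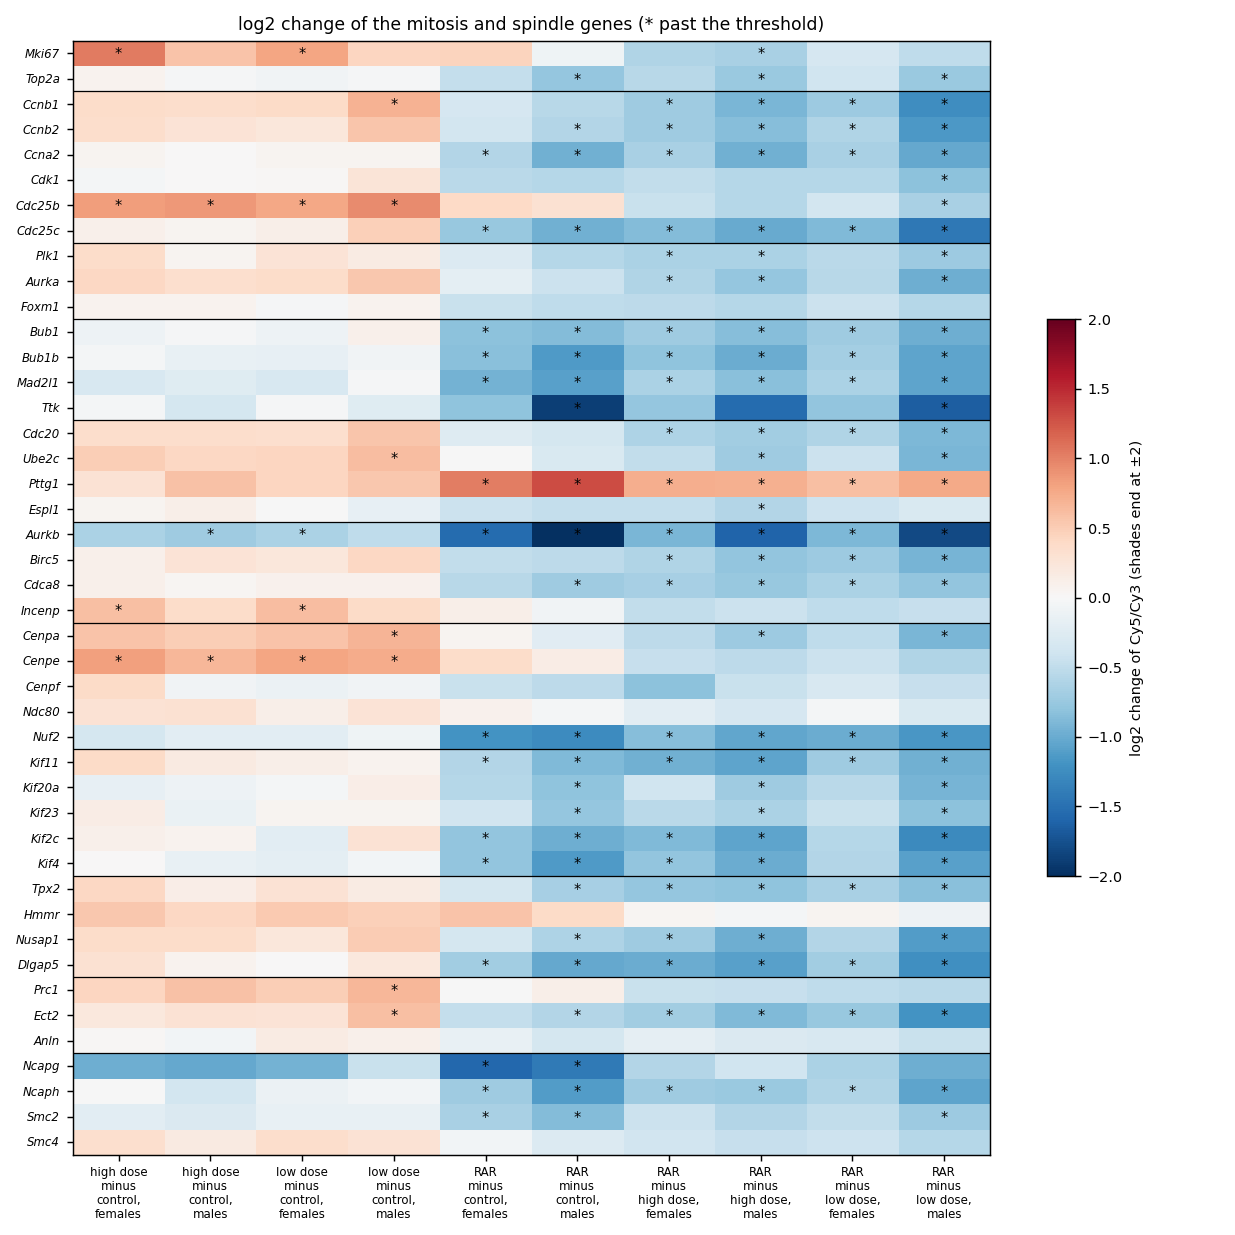
Difference in log2(Cy5/Cy3) (color, red higher and blue lower in the first-named group) for each of the 44 genes (rows, grouped by role) in 10 treatment comparisons (columns). Asterisks mark an adjusted p below 0.05 with a change of at least 1.5-fold, and shades show measured values, also where a group was at background and the text gives a bound. The RAR columns are mostly blue, with Pttg1 red throughout.

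Among the 6 genes of the cyclin and CDK1 engine, 2 were lower in female and 3 in male RAR thymocytes than in control, and 4 in each sex were lower than after the high dose. Ccnb1, cyclin B1, read -0.53, -0.73 and -0.44 on the female control arrays, -0.44, -0.26 and 0.12 after the high dose, -0.24, -0.30 and 0.01 after the low dose and -0.85, -0.60 and -1.27 in RAR. In male samples it read -0.59, -1.03 and -0.85 in control, -0.57, -0.39 and -0.44 after the high dose, 0.20, -0.34 and -0.23 after the low dose and -1.27, -1.56 and -1.29 in RAR. The male RAR arrays were below all other male arrays, and the highest values followed the low dose. In RAR the Ccnb1 transcript differed by -0.71 ± 0.19 (adjusted p = 0.0181) from high dose in females and by -0.91 ± 0.19 (adjusted p = 0.00435) in males, and it was higher after the low dose than in control in males, by 0.70 ± 0.19 (adjusted p = 0.0198).

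Ccnb2, cyclin B2, read 0.57, 0.60 and 0.82 on the female control arrays, 0.82, 0.94 and 1.26 after the high dose, 0.91, 0.70 and 1.05 after the low dose and 0.26, 0.59 and 0.02 in RAR. Its male values were 0.72, 0.23 and 0.37 in control, 0.57, 0.88 and 0.67 after the high dose, 1.14, 0.92 and 0.94 after the low dose and -0.08, -0.25 and -0.11 in RAR. RAR differed from high dose by -0.72 ± 0.16 (adjusted p = 0.00845) in females and -0.86 ± 0.16 (adjusted p = 0.00246) in males, with no overlap of the arrays in either sex.

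Cdk1 itself read -0.61, -0.50 and -0.26 on the female control arrays, -0.65, -0.62 and -0.23 after the high dose, -0.39, -0.54 and -0.36 after the low dose and -0.94, -0.75 and -1.30 in RAR, and -0.44, -0.87 and -0.55 in control, -0.79, -0.53 and -0.54 after the high dose, -0.12, -0.50 and -0.48 after the low dose and -1.16, -1.23 and -1.18 in RAR. It was past the threshold in 1 comparison, RAR against low dose in males (-0.82 ± 0.16, adjusted p = 0.0015), although the RAR arrays of each sex lay below all its other arrays. Its RAR minus control difference was -0.54 ± 0.16 (adjusted p = 0.0152) in females and -0.57 ± 0.16 (adjusted p = 0.00981) in males, below the fold required. Of 2 further Cdk1 probes with lower signal, 1 was lower in RAR against control in both sexes (-1.01 ± 0.27 in females and -1.56 ± 0.27 in males) and the other was higher in females (0.79 ± 0.29).

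Cdc25c, a phosphatase that activates CDK1, had the largest changes of this role. The arrays read -0.87, -0.98 and -0.73 on the female control arrays, -1.03, -0.93 and -0.30 after the high dose, -0.79, -0.88 and -0.56 after the low dose and -1.83, -1.23 and -1.80 in RAR. Male arrays read -0.74, -1.34 and -0.91 in control, -1.21, -0.74 and -0.88 after the high dose, -0.26, -0.64 and -0.67 after the low dose and -1.84, -2.08 and -1.95 in RAR. It fell in all 6 RAR comparisons, by 1.44 on the log2 scale against low dose in males (SE 0.21, adjusted p = 0.000132) and with -0.76 ± 0.21 (adjusted p = 0.0099) against control in females. Its relative Cdc25b, which acts earlier, rose after both doses in both sexes, with high dose minus control at 0.84 ± 0.11 (adjusted p = 6.51e-05) in females and 0.87 ± 0.11 (adjusted p = 3.61e-05) in males, and no overlap with controls. Ccna2, which encodes cyclin A2 of S phase and G2, fell in all 6 RAR comparisons, from -0.59 ± 0.14 (adjusted p = 0.00325) to -1.02 ± 0.14 (adjusted p = 7.13e-05).

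Of the kinases Plk1 and Aurka and the transcription factor Foxm1, none was past the threshold in RAR against control, and Plk1 and Aurka were lower than after the high dose in both sexes. Plk1, which acts at centrosomes and kinetochores, read -0.78, -0.51 and -0.52 on the female control arrays, -0.28, -0.35 and -0.08 after the high dose, -0.27, -0.45 and -0.28 after the low dose and -0.86, -0.73 and -1.02 in RAR. Its male values were -0.27, -0.52 and -0.72 in control, -0.42, -0.35 and -0.57 after the high dose, -0.26, -0.50 and -0.28 after the low dose and -1.05, -1.26 and -0.94 in RAR. The male RAR arrays were below all other male arrays, and female RAR overlapped with control. RAR minus high dose was -0.63 ± 0.13 (adjusted p = 0.00551) in females and -0.63 ± 0.13 (adjusted p = 0.0052) in males. Aurka, which matures the centrosomes, read -0.91, -0.75 and -0.68 on the female control arrays, -0.45, -0.53 and -0.11 after the high dose, -0.45, -0.46 and -0.32 after the low dose and -0.93, -0.85 and -1.12 in RAR, and -0.71, -0.95 and -0.96 in control, -0.57, -0.40 and -0.63 after the high dose, -0.11, -0.52 and -0.36 after the low dose and -1.26, -1.41 and -1.26 in RAR. It differed by -0.60 ± 0.13 (adjusted p = 0.00637) and -0.78 ± 0.13 (adjusted p = 0.000928) from high dose. Foxm1, an activator of many late cell cycle genes, read -1.05, -0.94 and -0.82 on the female control arrays, -1.05, -0.90 and -0.66 after the high dose, -0.88, -1.07 and -0.92 after the low dose and -1.36, -1.18 and -1.63 in RAR. The males read -0.78, -0.92 and -1.13 in control, -0.89, -0.76 and -0.96 after the high dose, -0.85, -0.90 and -0.90 after the low dose and -1.54, -1.50 and -1.29 in RAR. RAR minus high dose was -0.52 ± 0.13 (adjusted p = 0.0153) and -0.57 ± 0.13 (adjusted p = 0.0088), with no overlap of arrays but less than the 1.5-fold required.

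All 4 genes of the spindle assembly checkpoint (Bub1, Bub1b, Mad2l1, Ttk) were lower in male RAR than in control, and all but Ttk in females, and the same 3 were lower than high dose in both sexes. Mad2l1, whose protein inhibits the anaphase promoting complex, read 0.46, 0.34 and 0.67 on the female control arrays, -0.03, 0.09 and 0.45 after the high dose, 0.12, 0.08 and 0.29 after the low dose and -0.49, -0.15 and -0.75 in RAR. Males read 0.35, 0.04 and 0.28 in control, -0.19, 0.07 and 0.06 after the high dose, 0.36, 0.10 and 0.14 after the low dose and -0.95, -0.91 and -0.72 in RAR. All RAR arrays were below all others of their sex. The difference from control was -0.95 ± 0.16 (adjusted p = 0.000134) in females and -1.08 ± 0.16 (adjusted p = 2.83e-05) in males.

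Ttk, the kinase that starts checkpoint signaling, read -1.07, -0.29 and -0.41 on the female control arrays, -0.84, -0.82 and -0.22 after the high dose, -0.98, -0.89 and 0.02 after the low dose and -2.29, -1.11 and -0.80 in RAR. Male values were -0.27, -0.38 and -0.73 in control, -0.86, -0.16 and -1.42 after the high dose, -0.15, -1.80 and -0.14 after the low dose and -2.80, -2.61 and -1.62 in RAR. It was well above background on 0 of the 3 male RAR and 1 of the 3 female RAR arrays, so its male level has only a bound, at least 3.21-fold lower than control (adjusted p = 0.00491). Against low dose, where 2 of the 3 arrays measured it, it was at least 2.62-fold lower in males (adjusted p = 0.0239). Bub1b, which encodes the BUBR1 checkpoint protein, differed from control by -0.84 ± 0.17 (adjusted p = 0.000692) and -1.13 ± 0.17 (adjusted p = 2.94e-05), and Bub1, a kinetochore kinase, by -0.82 ± 0.16 (adjusted p = 0.000763) and -0.87 ± 0.16 (adjusted p = 0.00038), in females and males.

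The genes of anaphase onset divided. Pttg1, which encodes securin, the inhibitor of separase, read -0.71, -1.04 and -0.93 on the female control arrays, -0.46, -0.61 and -0.73 after the high dose, -0.33, -0.46 and -0.61 after the low dose and 0.09, 0.05 and 0.23 in RAR. In males it read -1.01, -0.84 and -0.87 in control, -0.35, -0.42 and -0.21 after the high dose, -0.41, -0.09 and -0.61 after the low dose and 0.54, 0.19 and 0.45 in RAR. Every RAR array was above every other array of its sex. The Pttg1 transcript was 2.03-fold higher than control in females (1.02 ± 0.14, adjusted p = 1.57e-05) and 2.46-fold in males (1.30 ± 0.14, adjusted p = 7.95e-07), and 0.72 ± 0.14 (adjusted p = 0.00289) and 0.72 ± 0.14 (adjusted p = 0.00267) above high dose.

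Espl1, separase itself, was lower than high dose in males (-0.59 ± 0.13, adjusted p = 0.00828). Cdc20, the activator of the anaphase promoting complex, fell against high dose in both sexes (-0.61 ± 0.15, adjusted p = 0.0142, and -0.70 ± 0.15, adjusted p = 0.0071). Ube2c, its ubiquitin-conjugating enzyme, was higher than control after the low dose in males (0.61 ± 0.12, adjusted p = 0.00258) and lower in RAR than after either dose in males (-0.72 ± 0.12, adjusted p = 0.000935 against high dose). None of Cdc20, Ube2c and Espl1 was past the threshold in RAR against control.

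In the chromosomal passenger complex, which corrects attachments and starts cytokinesis, Aurkb fell in all 6 RAR comparisons. Aurkb, the kinase of the complex, read -0.30, -0.37 and -0.01 on the female control arrays, -0.94, -0.99 and -0.64 after the high dose, -0.68, -1.31 and -0.59 after the low dose and -1.86, -1.43 and -2.02 in RAR. The males had -0.37, -0.78 and -0.60 in control, -1.43, -0.91 and -1.53 after the high dose, -1.07, -1.29 and -0.90 after the low dose and -2.88, -3.00 and -2.81 in RAR. Control arrays were highest and RAR arrays lowest in both sexes, without overlap. RAR minus control was -1.54 ± 0.21 (adjusted p = 1.63e-05) in females. In males the probe was not well above background on any RAR array, and the level was at least 3.69-fold lower than control (adjusted p = 1.30e-07), at least 2.81-fold lower than high dose (adjusted p = 8.68e-05) and at least 2.53-fold lower than low dose (adjusted p = 1.14e-05). It was also lower than control after the low dose in females (-0.63 ± 0.21, adjusted p = 0.0479) and after the high dose in males (-0.71 ± 0.21, adjusted p = 0.0235). The female call after the low dose was lost when any 1 of the 3 control arrays or low dose replicate 1 or 2 was left out (-0.41 to -0.72). The male call after the high dose was lost without male control replicate 1 or 3 or male high dose replicate 1 or 3 (-0.59 to -0.72), and with slide as a block it was -0.64 ± 0.26 (adjusted p = 0.15).

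Birc5, survivin, which brings the complex to centromeres, read 0.55, 0.49 and 0.70 on the female control arrays, 0.47, 0.59 and 0.96 after the high dose, 0.83, 0.59 and 0.99 after the low dose and 0.08, 0.31 and -0.15 in RAR. Its male values were 0.60, 0.14 and 0.31 in control, 0.51, 0.78 and 0.57 after the high dose, 0.94, 0.57 and 0.76 after the low dose and -0.08, -0.34 and -0.10 in RAR. RAR minus high dose was -0.59 ± 0.16 (adjusted p = 0.0233) and -0.80 ± 0.16 (adjusted p = 0.00426), and RAR arrays were below all others of their sex. Birc5 was not past the threshold in RAR against control in either sex. Cdca8 (borealin) fell against high dose in both sexes (-0.66 ± 0.14, adjusted p = 0.00518, and -0.75 ± 0.14, adjusted p = 0.0017). Incenp, the scaffold of the complex, was higher than control after both doses in females (0.61 ± 0.16, adjusted p = 0.0172, and 0.62 ± 0.16, adjusted p = 0.0139) and was not past the threshold in any RAR comparison.

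The 5 centromere and kinetochore genes differed among themselves. Nuf2, a subunit of the NDC80 complex that binds microtubules, read 0.23, 0.13 and 0.26 on the female control arrays, -0.19, -0.38 and 0.14 after the high dose, 0.07, -0.23 and 0.15 after the low dose and -1.29, -0.71 and -0.98 in RAR. In males it read 0.10, -0.19 and -0.09 in control, -0.24, -0.07 and -0.49 after the high dose, 0.05, -0.48 and -0.02 after the low dose and -1.12, -1.42 and -1.40 in RAR. RAR arrays were below all others of their sex, and the difference from control was -1.20 ± 0.18 (adjusted p = 4.81e-05) in females and -1.25 ± 0.18 (adjusted p = 2.27e-05) in males. Ndc80, its partner in the complex, had RAR minus control differences of 0.08 ± 0.14 (adjusted p = 0.759) and -0.03 ± 0.14 (adjusted p = 0.921).

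Cenpe, the kinetochore motor that brings chromosomes to the spindle equator, read -0.39, -0.19 and -0.08 on the female control arrays, 0.29, 0.56 and 0.95 after the high dose, 0.52, 0.27 and 0.91 after the low dose and 0.14, 0.45 and -0.16 in RAR. Males read 0.08, -0.49 and -0.22 in control, 0.40, 0.55 and 0.41 after the high dose, 0.66, 0.23 and 0.70 after the low dose and 0.02, -0.30 and 0.09 in RAR. It rose against control after both doses in both sexes, with high dose minus control at 0.82 ± 0.21 (adjusted p = 0.0128) and 0.66 ± 0.21 (adjusted p = 0.0355). RAR minus control was 0.36 ± 0.21 (adjusted p = 0.235) and 0.15 ± 0.21 (adjusted p = 0.681). Cenpa, the histone H3 variant of centromeres, rose after the low dose in males (0.68 ± 0.14, adjusted p = 0.00418) and was lower in male RAR than after the high dose (-0.73 ± 0.14, adjusted p = 0.00321). Cenpf, a kinetochore protein of late G2, had RAR minus high dose differences of -0.82 ± 0.27 (adjusted p = 0.0548) and -0.44 ± 0.27 (adjusted p = 0.345).

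All 5 kinesin motors (Kif11, Kif20a, Kif23, Kif2c, Kif4) were lower in male RAR than in each of the other male groups, and 3 of them (Kif11, Kif2c, Kif4) were lower in female RAR than in control and high dose. Kif2c, which takes microtubule ends apart at kinetochores, read -0.96, -0.79 and -0.96 on the female control arrays, -0.86, -0.69 and -0.85 after the high dose, -1.30, -1.26 and -0.76 after the low dose and -1.72, -1.38 and -1.96 in RAR. Its male values were -0.70, -1.43 and -1.16 in control, -0.93, -1.01 and -1.14 after the high dose, -0.49, -1.02 and -0.91 after the low dose and -2.01, -1.98 and -2.22 in RAR. The female RAR arrays lay below all other female arrays, and the male RAR arrays below all other male arrays. RAR minus control was -0.78 ± 0.19 (adjusted p = 0.00398) and -0.98 ± 0.19 (adjusted p = 0.000511).

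Kif20a, a motor of the central spindle, read -0.51, -0.32 and -0.25 on the female control arrays, -0.64, -0.73 and -0.22 after the high dose, -0.43, -0.56 and -0.19 after the low dose and -1.15, -0.53 and -1.11 in RAR, and -0.20, -0.90 and -0.66 in control, -0.74, -0.65 and -0.67 after the high dose, -0.33, -0.62 and -0.43 after the low dose and -1.53, -1.45 and -1.20 in RAR. In males RAR minus control was -0.81 ± 0.19 (adjusted p = 0.00286), and in females -0.57 ± 0.19 (adjusted p = 0.0317). Kif11 fell by 0.97 against high dose in females (SE 0.17, adjusted p = 0.00163) and by 1.06 in males (SE 0.17, adjusted p = 0.00059). Kif4, a motor on chromosome arms, differed from control by -0.78 ± 0.20 (adjusted p = 0.0052) and -1.14 ± 0.20 (adjusted p = 0.000169).

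Of the genes for spindle assembly and microtubule binding, Tpx2, Nusap1 and Dlgap5 were lower in RAR than after the high dose in both sexes, and Hmmr was not. Dlgap5, which stabilizes kinetochore fibers, read 0.30, 0.55 and 0.40 on the female control arrays, 0.60, 0.81 and 0.75 after the high dose, 0.16, 0.52 and 0.59 after the low dose and -0.10, -0.09 and -0.64 in RAR. In males it read 0.61, 0.13 and 0.18 in control, 0.29, 0.57 and 0.26 after the high dose, 0.73, 0.50 and 0.31 after the low dose and -0.58, -0.71 and -0.85 in RAR. RAR arrays were below all others of their sex. RAR minus high dose was -1.0 ± 0.17 (adjusted p = 0.00142) and -1.08 ± 0.17 (adjusted p = 0.000538).

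Nusap1, which bundles spindle microtubules, read 0.89, 0.72 and 0.92 on the female control arrays, 1.02, 1.20 and 1.40 after the high dose, 1.1, 0.92 and 1.19 after the low dose and 0.46, 0.73 and 0.28 in RAR. Males read 0.90, 0.50 and 0.74 in control, 0.94, 1.26 and 1.01 after the high dose, 1.46, 1.03 and 1.17 after the low dose and 0.13, 0.04 and 0.12 in RAR. RAR minus high dose was -0.71 ± 0.15 (adjusted p = 0.00493) and -0.97 ± 0.15 (adjusted p = 0.000372). Tpx2, the activator of AURKA on the spindle, differed by -0.78 ± 0.15 (adjusted p = 0.00387) and -0.80 ± 0.15 (adjusted p = 0.00286). Hmmr, a microtubule-binding hyaluronan receptor, had RAR minus control differences of 0.58 ± 0.11 (adjusted p = 0.0007) and 0.39 ± 0.11 (adjusted p = 0.0128), under the fold required, and RAR minus high dose differences of 0.04 ± 0.11 (adjusted p = 0.871) and -0.03 ± 0.11 (adjusted p = 0.913).

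Of the cytokinesis genes, Prc1, the bundler of the central spindle, read -0.27, -0.10 and -0.10 on the female control arrays, 0.13, 0.17 and 0.51 after the high dose, 0.40, 0.25 and 0.36 after the low dose and -0.23, 0.16 and -0.44 in RAR. Males read -0.23, -0.45 and -0.42 in control, 0.11, 0.29 and 0.23 after the high dose, 0.44, 0.22 and 0.21 after the low dose and -0.22, -0.33 and -0.23 in RAR. It was higher after the low dose than in control in males (0.66 ± 0.14, adjusted p = 0.00383), and RAR minus control was -0.01 ± 0.14 (adjusted p = 0.979) and 0.11 ± 0.14 (adjusted p = 0.612). Ect2, which activates RhoA at the cleavage plane, read 0.17, 0.34 and 0.53 on the female control arrays, 0.35, 0.45 and 0.88 after the high dose, 0.59, 0.37 and 0.91 after the low dose and -0.15, 0.05 and -0.29 in RAR, and 0.33, -0.19 and -0.01 in control, 0.20, 0.45 and 0.35 after the high dose, 0.73, 0.48 and 0.74 after the low dose and -0.54, -0.77 and -0.32 in RAR. It rose after the low dose in males (0.61 ± 0.18, adjusted p = 0.0355) and was lower in RAR than after the high dose in both sexes (-0.69 ± 0.18, adjusted p = 0.0183, and -0.88 ± 0.18, adjusted p = 0.00435). Anln, anillin of the contractile ring, had RAR minus high dose differences of -0.18 ± 0.11 (adjusted p = 0.339) and -0.29 ± 0.11 (adjusted p = 0.118).

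**Figure D5:**
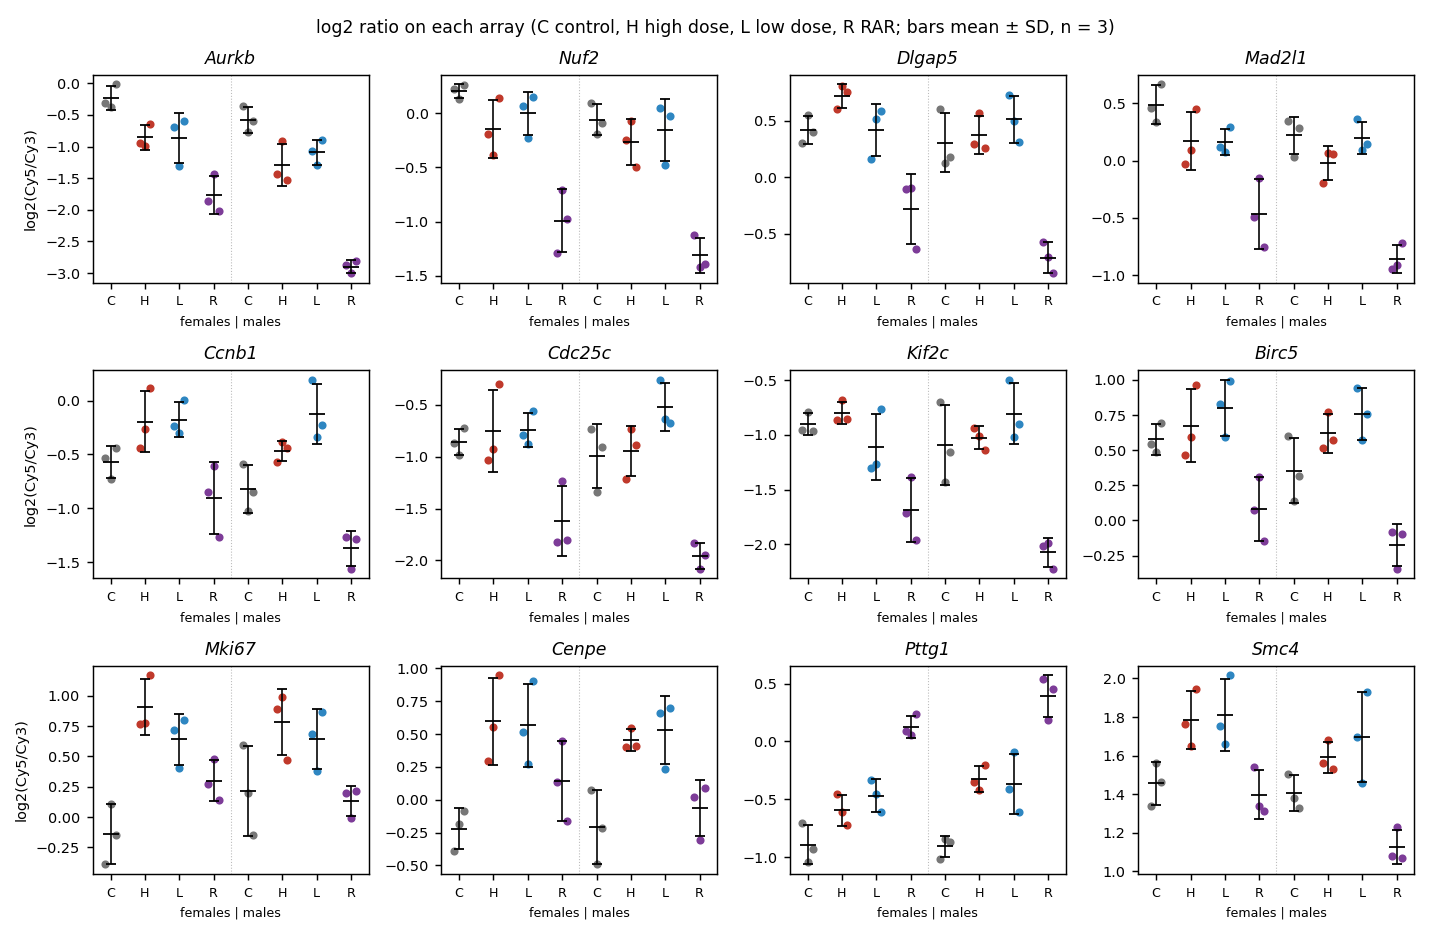
log2(Cy5/Cy3) on each array (points, y axis) for 12 of the genes by sex and treatment (x axis), with the mean ± SD of 3 arrays in black. Aurkb, Nuf2, Dlgap5, Mad2l1, Ccnb1, Cdc25c, Kif2c and Birc5 have their lowest group mean in RAR in both sexes, and Pttg1 its highest.

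In condensin, the ring that compacts mitotic chromosomes, Ncapg, Ncaph and Smc2 were lower in RAR than in control in both sexes, and Ncaph alone was lower than after the high dose. Ncapg, a regulatory subunit, read -0.05, 0.70 and 1.22 on the female control arrays, 0.04, -1.45 and 0.35 after the high dose, -0.47, -0.27 and -0.21 after the low dose and -1.24, -1.45 and -0.14 in RAR. Male arrays gave 0.51, -0.04 and 0.17 in control, -1.05, -0.20 and -1.19 after the high dose, -0.51, -0.69 and 0.48 after the low dose and -0.75, -1.65 and -1.22 in RAR. The values scattered widely within groups, and the probe stood at background on all female RAR and 2 male RAR arrays. Female RAR was at least 2.02-fold lower than control (adjusted p = 0.016), and male RAR, where 1 of the 3 arrays measured it, differed from control by -1.42 ± 0.46 (adjusted p = 0.0248). Ncaph, the kleisin subunit, differed from control by -0.71 ± 0.15 (adjusted p = 0.00141) and -1.11 ± 0.15 (adjusted p = 1.36e-05), and Smc2, an ATPase subunit, by -0.64 ± 0.14 (adjusted p = 0.00179) and -0.87 ± 0.14 (adjusted p = 9.29e-05). Smc4, the other ATPase subunit, read 1.34, 1.56 and 1.46 on the female control arrays, 1.76, 1.65 and 1.94 after the high dose, 1.75, 1.66 and 2.02 after the low dose and 1.54, 1.34 and 1.31 in RAR. Males read 1.51, 1.38 and 1.33 in control, 1.56, 1.68 and 1.53 after the high dose, 1.70, 1.46 and 1.93 after the low dose and 1.08, 1.23 and 1.07 in RAR. RAR minus control was -0.06 ± 0.13 (adjusted p = 0.809) and -0.28 ± 0.13 (adjusted p = 0.107).

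The remaining genes are general markers of dividing cells. Mki67, which encodes the Ki-67 protein that coats mitotic chromosomes, read -0.39, 0.11 and -0.15 on the female control arrays, 0.77, 0.77 and 1.17 after the high dose, 0.71, 0.40 and 0.80 after the low dose and 0.28, 0.48 and 0.14 in RAR. Among male arrays Mki67 read 0.60, 0.20 and -0.15 in control, 0.89, 0.99 and 0.47 after the high dose, 0.69, 0.38 and 0.87 after the low dose and 0.20, -0.01 and 0.21 in RAR. Female controls were below all irradiated female arrays. The Mki67 transcript was 2.06-fold higher after the high dose in females (1.04 ± 0.20, adjusted p = 0.0016), also rose after the low dose (0.78 ± 0.20, adjusted p = 0.0117), and fell in male RAR against high dose (-0.65 ± 0.20, adjusted p = 0.0466). Top2a, the topoisomerase that untangles sister chromatids, read 0.38, 0.56 and 0.70 on the female control arrays, 0.45, 0.70 and 0.72 after the high dose, 0.56, 0.24 and 0.62 after the low dose and 0.12, 0.31 and -0.20 in RAR. Males read 0.73, 0.40 and 0.51 in control, 0.44, 0.65 and 0.47 after the high dose, 0.70, 0.39 and 0.49 after the low dose and -0.13, -0.36 and -0.17 in RAR. It fell in male RAR against control (-0.77 ± 0.15, adjusted p = 0.000447) and high dose (-0.74 ± 0.15, adjusted p = 0.00367), and in females the differences were -0.47 ± 0.15 (adjusted p = 0.0209) and -0.55 ± 0.15 (adjusted p = 0.0214).

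Genes with and without a CHR in the promoter window are set side by side here. Against high dose in males, the 27 genes with a CHR had a median of -0.70 (17 lower) and the 8 without -0.82 (6 lower). In females the medians were -0.60 (11 lower) and -0.67 (6 lower). Against control they were -0.57 and -0.58 in males and -0.42 in both sets in females. No test was made of these differences.

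Of 60 further mitotic genes on the arrays, 22 were lower and 2 higher in female RAR against control (all probes: 10.8% lower, 9.61% higher). In males 30 were lower and 2 higher (13.3% lower, 11.2% higher). Against high dose 29 and 37 were lower and 0 higher (all probes: 3.28% and 2.77% lower). Against low dose 22 and 42 were lower and 0 higher (1.86% and 4.80% lower). Their medians against high dose were -0.57 in females and -0.69 in males. The genes lowest against control were Kif15, a spindle kinesin (-1.58 ± 0.21), and Wee1, the kinase that holds CDK1 inactive (-1.57 ± 0.15), in females, and Plk4, which starts centriole duplication (-2.11 ± 0.26), and Kif15 (-1.86 ± 0.21) in males. The genes highest were Psrc1 (2.03 ± 0.12 in females and 2.40 ± 0.12 in males) and Gtse1 (1.24 ± 0.11 and 1.49 ± 0.11), which are known p53 targets. Psrc1 and Gtse1 were also the highest after each single dose, with Psrc1 at 2.02 ± 0.12 and 2.35 ± 0.12 after the high dose.

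The 37 genes of DNA replication and S phase followed another course. After the high dose 22 fell in females and 21 in males, and after the low dose 22 and 21, with 0 higher and medians between -0.62 and -0.75. In RAR 31 fell against control in each sex (10.8% and 13.3% of all probes), with medians of -1.05 and -1.13. Against high dose 6 fell in females and 11 in males, with medians of -0.38 and -0.39, where 22 and 29 of the 44 mitosis and spindle genes were lower. Of all probes, 3.28% and 2.77% were lower there.

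Between the sexes, 1 of the 44 genes was past the threshold. In RAR, Aurkb was lower in males, where it was at background, by at least 1.94-fold (adjusted p = 0.0129), with 2 of the 3 female arrays measuring it, and 0.0952% of all probes were lower and 0.343% higher. Of the 44, 43 were below 0, with a median of -0.28, and 16 were below an unadjusted p of 0.05 in limma (11.8% of all probes). Leaving out female RAR replicate 2, male RAR replicate 1 or male RAR replicate 2 left 0 past the threshold. In control, high dose and low dose 0 genes passed (all probes: 0.207%, 0.296% and 0.223%). There 0, 1 and 0 were below an unadjusted p of 0.05 in limma (all probes: 8.55%, 9.62% and 4.01%). The interaction of sex and treatment was past the threshold for 0 genes (0.00359% of all probes), with 1 below an unadjusted p of 0.05 (6.45% of all probes). The sex difference of RAR minus control was called for 0 genes (0% of all probes), with 2 below an unadjusted p of 0.05 (7.62% of all probes).

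Of the 44 genes, 14 had 18 further probes. In RAR against high dose 17 of the 18 had the sign of the chosen probe in each sex, and in RAR against control 17 in females and 18 in males. After the high dose the signs were the same for 11 of 18 in females and 6 of 18 in males.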

How the data were processed

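RNA of thymocytes was measured on 24 two-colour arrays, 3 in each of 8 groups, with the samples grouped by their titles. The authors deposited, for each array, the intensity of every spot as given by Feature Extraction 11.5.1.1 (per the file headers, whereas the methods name another version). The authors also deposited 1 value of log2 Cy5/Cy3 for every probe on every array, made from the background-subtracted, dye-normalized signals without centring between arrays. On each array, 99.7% to 100% of these values lay within 0.01 of the ratio of the processed signals. They were the main values, and the deposited intensities gave the flags, the choice of probe and the alternatives. Spots not above background carry surrogate values. There were 0 columns matched to no sample.

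The members and the lists of other genes were chosen with earlier results of these data known. Genes were named through the accession of the probe in a table of GRCm38.p6 genes, which named 28026 of 55681 probes. The array annotation is of another build, so the table was used for names and promoters only. The 8 group means were estimated from all 24 arrays with limma 3.58.1 under R 4.3.3 (16 residual and 1.63 prior degrees of freedom). Benjamini-Hochberg adjustment ran over all probes. The threshold, an adjusted p below 0.05 and at least 1.5-fold, is that of the methods. The fit was tested on simulated data. Where a probe was well above background on no array of a group, "at least N-fold" was computed from the Cy5 channel after Aquantile normalization. The bound was taken against the lowest signal well above background on each array, without dye swaps. Values on every array are given for the genes of each role with the highest signal or the largest called change, and for 8 genes in any case. Promoters were from RefSeq. Python 3.11.15, pandas 2.3.3 and data.table (version 1.17.8) handled the tables, and matplotlib 3.10.9 drew the plots. P-values rest on the spread between samples within groups, estimated for each probe over all 8 groups together and not from the compared groups alone. The calls of females and males share this estimate. Western blots and RT-PCR were not analysed here.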

Additional observations from a re-analysis of the deposited data

How the results depend on the processing

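Of the 161 calls of single genes in the 10 treatment comparisons, 0 changed sign under any alternative, but many were lost. Given as genes past the threshold in either direction, in the order high dose, low dose and RAR against control, then RAR against high and low dose, the main counts were 4, 5, 15, 23 and 18 in females and 3, 7, 24, 30 and 32 in males. At a log2 change over 1.5 they were 0, 0, 2, 0 and 0 in females and 0, 0, 2, 1 and 2 in males, and 0 for male against female RAR. With normexp background correction and loess, they were 7 for the high dose, 7, 10 and 5 for RAR in females, and 10 for RAR against control in males. With quantile normalization 14 genes passed in male RAR against high dose. In Cy5 alone they were 2, 1 and 26 against control in females and 3 for the low dose in males, and there the median of all probes itself moved by 0.64 in female RAR against control, with the genes at -0.66. With slide as a block they were 1, 2 and 8 against control and 4 for RAR against low dose in females, and 1 for the high dose in males. Dropping from each group the value farthest from the rest, they were 9 and 11 against control in males, 3 for male against female RAR and 20 for the interaction. This setting removes the most distant value for every probe, so it narrows the spread by its design. Its higher counts cannot be read as further differences. From the 6 compared arrays alone they were 2, 1, 9, 0 and 0 in females and 1, 1, 5 and 17 in males (high dose and low dose against control, then RAR against high and low dose). Male against female RAR, 1 gene, gave 0 with normexp, quantile normalization, Cy5 alone and the compared arrays alone.

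Leaving out each array in turn gave 2 to 5 genes for the high dose, 2 to 5 for the low dose, 11 to 19, 10 to 30 and 1 to 26 for RAR against control, high dose and low dose in females. In males it gave 2 to 5, 1 to 11, 19 to 27, 25 to 33 and 31 to 35, with 0 to 1 for male against female RAR and 0 to 0 for the interaction. The lowest count for the low dose in males was without male low dose replicate 1, and 2 passed without male control replicate 2. A fit with the replicate number as a block gave 4, 4, 15, 23 and 17 in females and 3, 7, 24, 29 and 32 in males, with 1 for male against female RAR and 0 for the interaction. The numbers do not pair the samples. Correlations of the deviations from group means ran from -0.31 to 0.22 for samples of the same number in different groups. For samples of different numbers they ran from -0.26 to 0.33. Over all alternatives for the genes whose values are given on every array, 3313 of 3840 values were counted as the same. These were calls kept in the same direction, or uncalled changes that stayed uncalled and moved by less than the larger group SD. Direction was not compared for the uncalled ones. Of the rest, 286 were no longer past the threshold, 155 came past it and 86 stayed uncalled but moved further. The cause of these changes was not tested. Probes near background, among them Ttk, Ncapg and Aurkb, limit what the smaller differences can show.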
